A study of Anas platyrhynchos with 11 samples.

Results

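The GDNF family of neurotrophic ligands and their receptors was followed through all 7 genes named for it, GDNF, ARTN, GFRA1, GFRA2, GFRA3, GFRA4 and RET, which were matched by gene name among the 16823 genes of one count table. All 7 were present. RNA had been measured in 11 bulk libraries of the duck (Anas platyrhynchos): 5 of Meissner corpuscles, the touch end organs of the bill in which lamellar cells of Schwann cell type surround a sensory axon ending, and 6 of bill skin. For the corpuscle libraries, corpuscles had been drawn by hand into a glass pipette, 2 to 10 per pipette. Each skin library held cells taken nearby where there were no corpuscles. The labels give no breed, age or sex, name no treatment, and tie no library to one of the 3 independent skin isolations, and p-values therefore speak only of how much these libraries vary.

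Ligands of this family bind a GFRA co-receptor, which is held to the cell surface by a lipid anchor and has no kinase of its own. The ligand and co-receptor together engage the receptor tyrosine kinase RET, which signals inside the cell through adaptors to the MAP kinase and PI3 kinase pathways. In mammals each co-receptor has a preferred ligand: GDNF for GFRA1, neurturin (NRTN) for GFRA2, artemin (ARTN) for GFRA3 and persephin for GFRA4. In mouse, RET and GFRA2 mark a class of rapidly adapting touch neurons whose endings enter Meissner corpuscles, and NCAM1 can take the place of RET as a signalling partner of the co-receptors.

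Total counts ran from 5766279 to 11886808 in corpuscle libraries and from 13263776 to 20925841 in skin libraries. All corpuscle libraries were made with a low-input kit and all skin libraries with a standard messenger RNA kit, so that the effects of kit and of tissue cannot be told apart anywhere. Corpuscles 4 and 5 stood apart from corpuscles 1 to 3 on the second principal component (12.5% of variance), with scores of -124 and -35.5 against 53.2 to 59.5, and corpuscle 4 had the lowest depth. Schwann cell markers (12 of the 16 listed genes were in the table) summed to 1040 to 2006 CPM in corpuscles and 1938 to 3268 CPM in skin, CPM being counts scaled to library size with TMM factors. SOX10, which defines these cells, ran from 102 to 388 CPM in corpuscles and from 118 to 178 CPM in skin. Markers of Merkel cells (13 of 14 in the table) summed to 14628 to 79474 CPM in corpuscles and 1024 to 2188 CPM in skin. CHGB, a granin, made up most of this sum, averaging 41726 CPM in corpuscles and 1286 CPM in skin. In the edgeR test described below 11 of the 13 were higher in corpuscles, against 33.0% of all genes tested. PCSK2 was lower and KRT8 did not pass. ATOH1 was among the higher, but its libraries overlapped, at 7.61 to 66.9 CPM in corpuscles and 4.19 to 12.5 CPM in skin. Endothelial markers (10 of 10) summed to 46.5 to 135 CPM in corpuscles and 1135 to 1578 CPM in skin. Sensory neuron markers (14 of 16 in the table) summed to 447 to 1921 CPM in corpuscles and 115 to 158 CPM in skin. UCHL1 alone averaged 672 CPM in corpuscles and 49.5 CPM in skin, and ISL1 and SNAP25 are on the Merkel list too. Of 13 tested 8 were higher in corpuscles and PRPH was lower, while NEFM, NEFH, NTRK2 and TUBB3 did not pass. The marker sums differed between the tissues, and their part in the results was not tested.

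GFRA2 rose in corpuscles and GFRA4 and GFRA1 fell, while RET and ARTN rose from low levels and GDNF and GFRA3 did not pass the test. In edgeR's quasi-likelihood test with Benjamini-Hochberg adjustment over 14638 genes, 5 of the 7 were called at an adjusted p of 0.05, 3 higher and 2 lower. Of all genes tested 56.4% were called, 33.0% higher and 23.5% lower, so a count of 5 in 7 says little about the family as such. The libraries of the 2 tissues did not overlap for 2 of the 7, GFRA2 and GFRA4, against 41.3% of all genes tested. In bulk libraries, fewer cells of a type and less RNA per cell cannot be told apart. The authors' deposited table called the same 5 members in the same directions, and 59.0% of its genes.

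**Figure D1:**
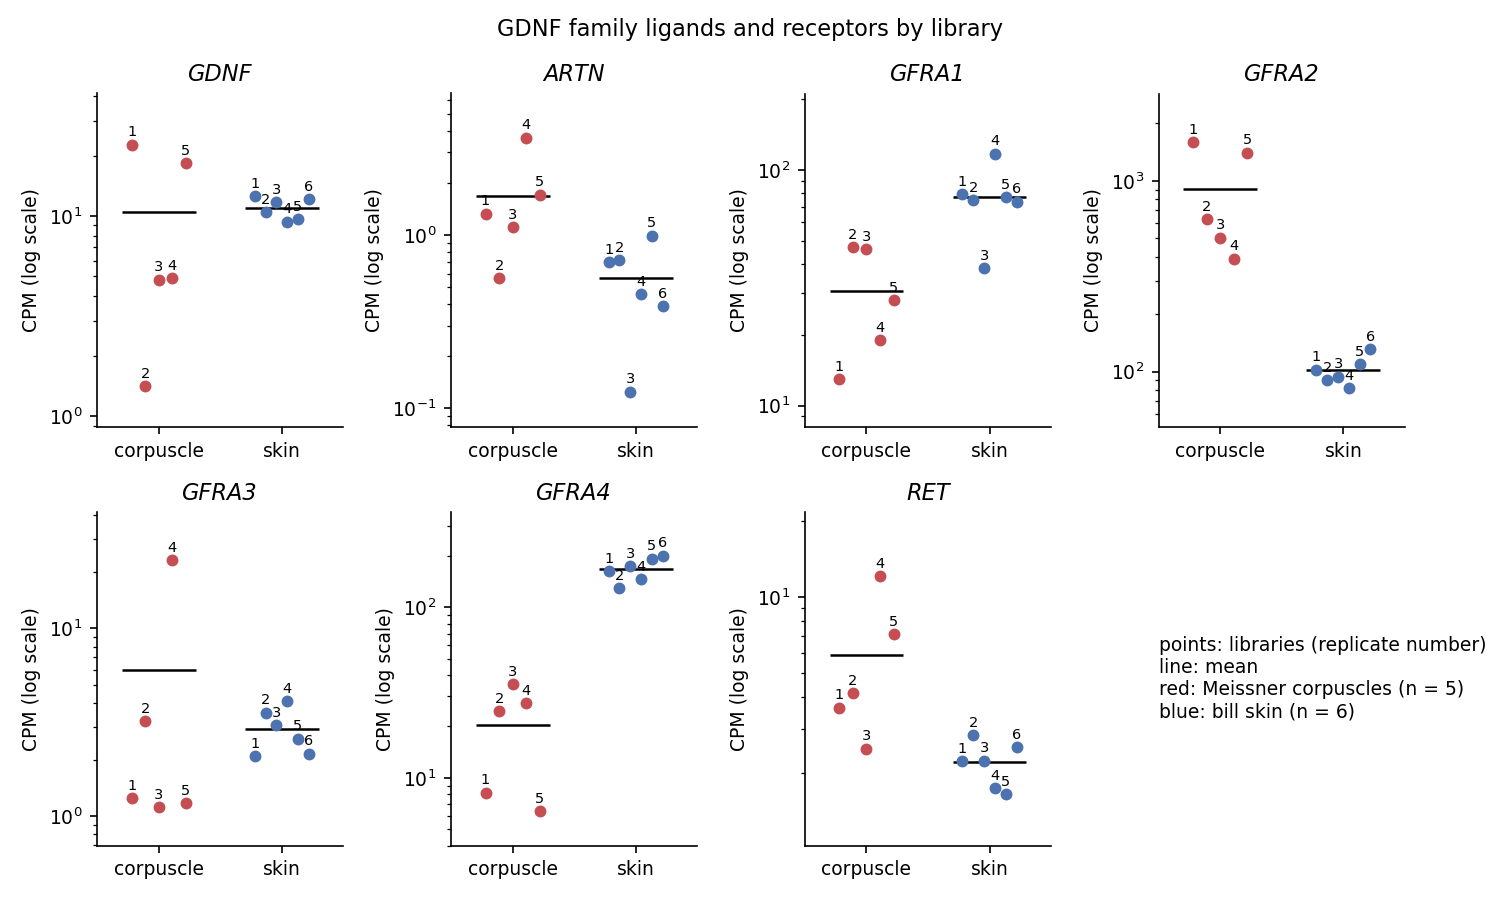
CPM of the 7 genes in each library, on a log axis that differs between panels; red points are Meissner corpuscles (n = 5), blue points bill skin (n = 6), numbers are replicate numbers and lines are means. GFRA2 lay between 391 and 1594 CPM in corpuscles and between 82.0 and 131 CPM in skin, and GFRA4 between 6.40 and 35.3 CPM in corpuscles and between 130 and 201 CPM in skin, whereas the other 5 genes overlapped.

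GFRA2, the co-receptor that prefers neurturin, was at 1594, 631, 504, 391 and 1406 CPM in corpuscles 1 to 5. In skin it was at 82.0 CPM in the lowest library, with a median of 98.5 CPM and a highest value of 131 CPM. Every corpuscle library thus lay above every skin library, and corpuscles 1 and 5 were well above the other 3. Its mean in corpuscles was 905 ± 553 CPM (SD, n = 5), against 102 ± 17.3 CPM for skin (n = 6), a log2 fold change of 3.15 ± 0.34 (SE, 8.89-fold; adjusted p = 3.07e-06). By mean CPM it ranked 88 among the 16823 genes in corpuscles and 2193 in skin. These values rested on 48154 reads in corpuscles and 9752 in skin. The call held in both sets of libraries split on the second principal component and without any single library. In corpuscles 4 and 5 with skin 5 and 6 the adjusted p was 0.0412.

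GFRA4, known in birds and mammals as the co-receptor of persephin, was at 8.17, 24.5, 35.3, 27.4 and 6.40 CPM in corpuscles 1 to 5. In skin it was at 130 CPM in the lowest library, with a median of 169 CPM and a highest value of 201 CPM. All corpuscle libraries lay below all skin libraries, and corpuscles 1 and 5, the libraries with the most GFRA2, had the least GFRA4. The mean was 20.4 ± 12.6 CPM in corpuscles, against 168 ± 27.4 CPM in skin (SD, n = 5 and 6), a log2 fold change of -3.05 ± 0.41 (SE), which is 8.26-fold lower in corpuscles (adjusted p = 1.94e-05). The call held under every alternative tried. No gene of the table carried the symbol of persephin (PSPN), so its level could not be analysed here.

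GFRA1, the co-receptor that prefers GDNF, was at 13.0, 47.0, 46.2, 19.0 and 28.0 CPM in corpuscles 1 to 5. In skin it was at 38.3 CPM in the lowest library, with a median of 75.7 CPM and a highest value of 118 CPM. The tissues overlapped, because skin 3, the lowest skin library, lay below corpuscles 2 and 3. GFRA1 was 2.50-fold lower in corpuscles, at 30.6 ± 15.5 CPM against 76.7 ± 25.2 CPM in skin (log2 fold change -1.32 ± 0.37 SE, adjusted p = 0.00677). Within corpuscles 1 to 3 and skin 1 to 4 the log2 fold change was -1.14 (adjusted p = 0.0733). In the 4 libraries of the other set, corpuscles 4 and 5 with skin 5 and 6, it was -1.59 (adjusted p = 0.0635), so that neither smaller set passed by itself.

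GFRA3, the co-receptor that prefers artemin, was at 1.24, 3.20, 1.11, 23.1 and 1.17 CPM in corpuscles 1 to 5, and at 2.09 CPM in the lowest skin library, 2.82 CPM at the median and 4.09 CPM in the highest. Corpuscle 4 alone lay above the skin libraries, and corpuscles 1, 3 and 5 lay below them. The log2 fold change was 1.00 ± 0.72 (SE) and did not pass (adjusted p = 0.251). Without corpuscle 4 it was -0.80 (adjusted p = 0.111), so that its direction rested on that library.

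The make-up of the co-receptor pool differed between the tissues when levels were put per kilobase of transcript, in the deposited FPKM values. GFRA2 made up 95.6 ± 3.68% (SD, n = 5) of the summed FPKM of the 4 co-receptors in corpuscles, with a range of 90.9 to 99.4%, and 44.5 ± 2.95% (n = 6) in skin, with a range of 39.2 to 47.5%. GFRA4 made up 2.09 ± 1.78% in corpuscles and 43.8 ± 3.20% in skin. The share of GFRA1 was 1.44 ± 1.03% in corpuscles and 10.8 ± 4.08% in skin, and that of GFRA3 was 0.913 ± 1.70% in corpuscles and 0.972 ± 0.362% in skin. Skin thus held GFRA2 and GFRA4 in near equal amounts per length, with a ratio of GFRA2 to GFRA4 of 0.908 to 1.17. In corpuscles that ratio ran from 23.9 to 369. It was highest in corpuscles 1 and 5, where GFRA4 was at only 1.49 and 1.14 FPKM. The summed FPKM of the 4 was 126 to 490 in corpuscles and 61.1 to 86.8 in skin, without overlap.

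**Figure D2:**
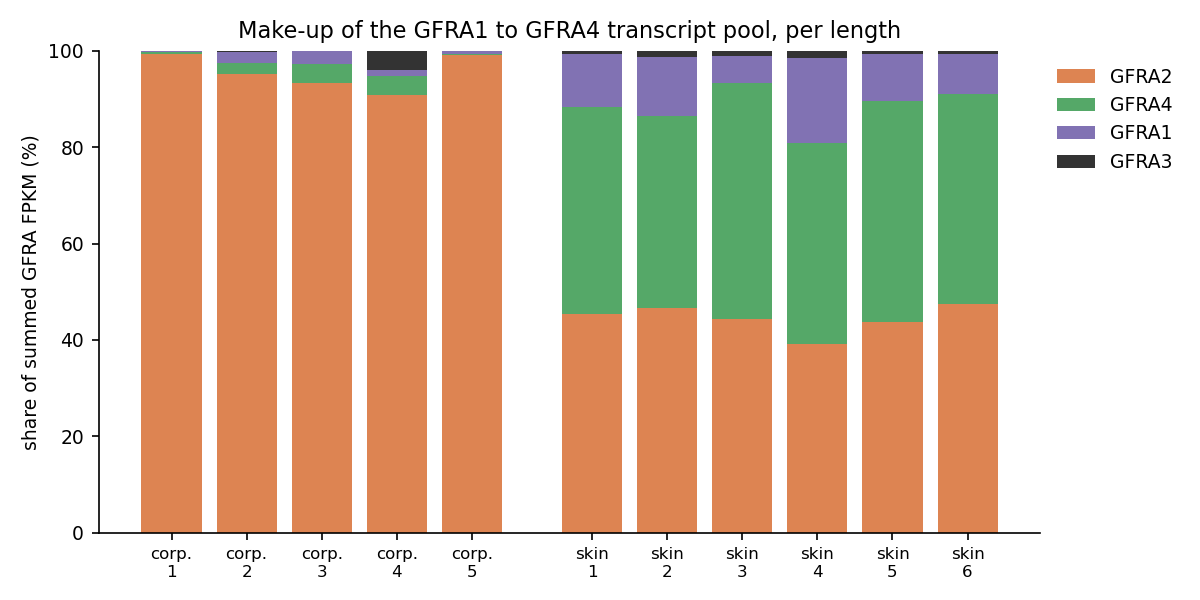
Share of each co-receptor in the summed FPKM of GFRA1 to GFRA4, in percent, one bar per library (5 corpuscle libraries left, 6 skin libraries right). GFRA2 takes 90.9 to 99.4% of the bar in corpuscles and 39.2 to 47.5% in skin, where GFRA4 takes 39.9 to 48.9%.

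RET, the signalling kinase shared by all 4 co-receptors, was low in both tissues. It was at 3.64, 4.14, 2.50, 12.1 and 7.12 CPM in corpuscles 1 to 5, and at 1.65 CPM in the lowest skin library, 2.24 CPM at the median and 2.84 CPM in the highest. Corpuscles 4 and 5 were highest, and corpuscle 3 lay among the skin libraries. RET rose by 1.40 ± 0.43 on the log2 scale (SE; 2.64-fold, adjusted p = 0.0116), with means of 5.89 ± 3.84 CPM in corpuscles, against 2.21 ± 0.453 CPM in skin (SD, n = 5 and 6). Without corpuscles 4 and 5 the log2 fold change was 0.63 (adjusted p = 0.123). Within corpuscles 1 to 3 and skin 1 to 4 it was 0.58 (adjusted p = 0.254), but with corpuscles 4 and 5 and skin 5 and 6 alone it was 2.21 (adjusted p = 0.0292).

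Per length RET lay far under GFRA2 in both tissues. GFRA2 exceeded RET by 67.2 to 906-fold in corpuscle libraries, with a median of 409, and by 66.1 to 138-fold in skin libraries, with a median of 96.2. NCAM1, the cell adhesion molecule that can act as an alternative partner, averaged 48.5 FPKM in corpuscles and 38.4 FPKM in skin and did not pass the test (log2 fold change 0.41, adjusted p = 0.248).

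Among the ligands, GDNF differed more between corpuscle libraries than between tissues. It was at 22.8, 1.41, 4.82, 4.92 and 18.4 CPM in corpuscles 1 to 5, and at 9.40 CPM in the lowest skin library, 11.1 CPM at the median and 12.6 CPM in the highest. Corpuscles 1 and 5 lay above all skin libraries and corpuscles 2, 3 and 4 below all of them. The highest corpuscle value was 16.1 times the lowest, whereas in skin the ratio was 1.34. The log2 fold change between the tissues was -0.07 ± 0.54 (SE, adjusted p = 0.924), and its sign turned with DESeq2 size factors (0.0028) and upper-quartile factors (0.069). A difference between tissues therefore was not detectable over the spread among corpuscles.

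The corpuscle libraries with the most GDNF were the same 2, numbers 1 and 5, that had the most GFRA2 and the least GFRA4. SOX10 was at 388, 297, 107, 102 and 313 CPM in corpuscles 1 to 5, with the same 2 libraries highest. Fibroblast markers (12 of 12 in the table) summed to 27151, 16300, 14134, 45465 and 41514 CPM and Merkel cell markers to 44804, 79474, 61697, 14628 and 41168 CPM in the same order, and neither followed GDNF. With 5 libraries these relations were not tested.

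ARTN, the ligand that prefers GFRA3, was the lowest of the 7 genes by read number, with 75 reads in corpuscles and 55 in skin. It was at 1.33, 0.565, 1.11, 3.65 and 1.71 CPM in corpuscles 1 to 5, and at 0.125 CPM in the lowest skin library, 0.576 CPM at the median and 0.992 CPM in the highest. Corpuscle 4 was highest and corpuscle 2 lay within the skin range. ARTN rose by 1.52 ± 0.55 on the log2 scale (SE; 2.87-fold, adjusted p = 0.0279), with means of 1.67 ± 1.18 CPM in corpuscles, against 0.563 ± 0.304 CPM in skin. Without corpuscle 4 the log2 fold change was 1.05 (adjusted p = 0.0832), without skin 4 it was 1.48 (adjusted p = 0.0505) and without skin 6 it was 1.44 (adjusted p = 0.0549). It passed the filter on low counts by 4 corpuscle and 2 skin libraries, and no longer without skin 5. Within corpuscles 1 to 3 and skin 1 to 4 the log2 fold change was 0.98 (adjusted p = 0.196), and with corpuscles 4 and 5 and skin 5 and 6 alone it was 1.93 (adjusted p = 0.0859).

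**Figure D3:**
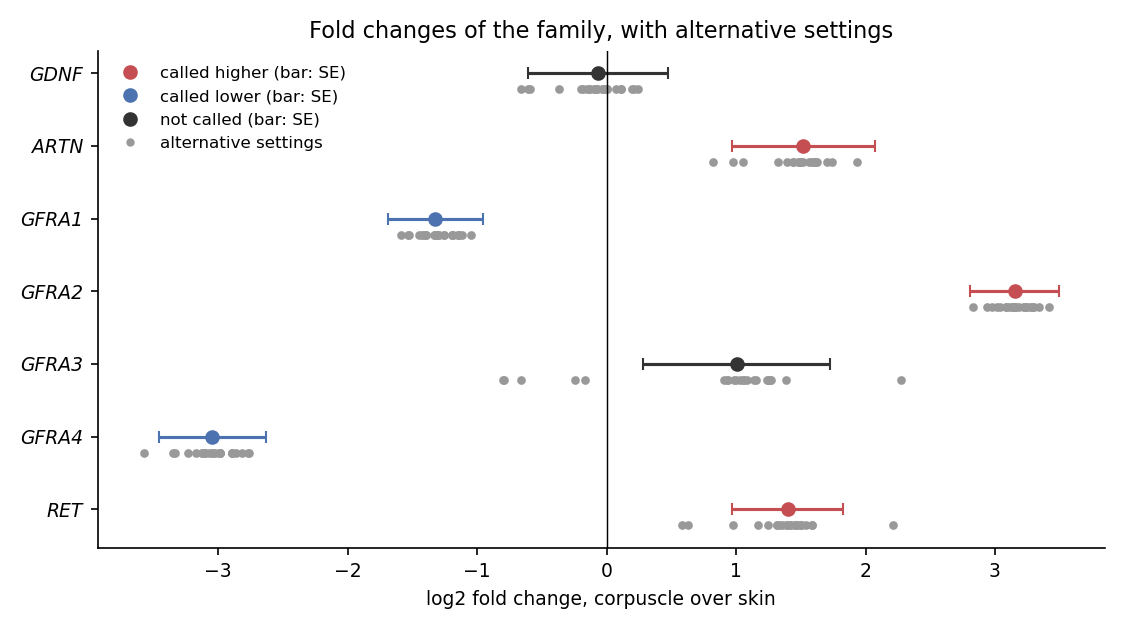
Log2 fold change of each gene, corpuscle over skin, with its SE (n = 5 and 6 libraries), red where called higher, blue where called lower and dark where not called; small grey points are the same value under the alternative settings and with libraries left out. GFRA2 (3.15) and GFRA4 (-3.05) stay far from 0 throughout, while GDNF and GFRA3 have points on both sides of 0.

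Levels of RET, ARTN and GFRA3 in corpuscles were close to those of genes known from unrelated organs. Of 32 genes of liver, retina, pituitary, pancreas and germ cells in the table, the median FPKM ran from 0.763 to 2.09 in corpuscle libraries and from 0.0431 to 0.128 in skin libraries, and it was highest in corpuscle 4. RET averaged 0.845 FPKM in corpuscles, where 28 of the 32 genes were at or above it, and 0.336 FPKM in skin, where 9 were. ARTN averaged 0.994 FPKM in corpuscles, with 24 of the 32 at or above it, and 0.355 FPKM in skin, with 8. GFRA3 averaged 1.29 FPKM in corpuscles, with 18 at or above it, and 0.674 FPKM in skin, with 8. GDNF averaged 2.29 FPKM in corpuscles, with 8 at or above it. In corpuscles 2, 3 and 4 GDNF was at 0.307, 1.05 and 1.04 FPKM, under the medians of the 32 genes there (0.763, 1.15 and 2.09). In corpuscles 1 and 5 it was at 5.06 and 3.97 FPKM, above their upper quartiles (2.05 and 2.13). GFRA4 and GFRA1 averaged 3.62 and 2.88 FPKM in corpuscles, with 5 and 6 of the 32 at or above them. GFRA4 in corpuscles 1 and 5 (1.49 and 1.14 FPKM) and GFRA1 in corpuscle 1 (1.25 FPKM) lay under those upper quartiles. The low shares of these genes there rest on levels also seen in genes of unrelated organs. Of the 32 genes 20 passed the filter on low counts, and of these 13 were called higher in corpuscles and 2 lower. Of all genes tested 33.0% were higher and 23.5% lower. A gene nearly absent from skin, such as DAZL (2.69 CPM in corpuscles, 0.0109 CPM in skin), can pass that filter only through corpuscle libraries. The filter thus favoured genes high in corpuscles, and this comparison does not test a rise of the 20. Why the median of the 32 genes was higher in corpuscle libraries, and the part of this in the rise of RET and ARTN, was not tested. For GFRA2, at 272 FPKM in corpuscles, 0 of the 32 genes reached its level.

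**Figure D4:**
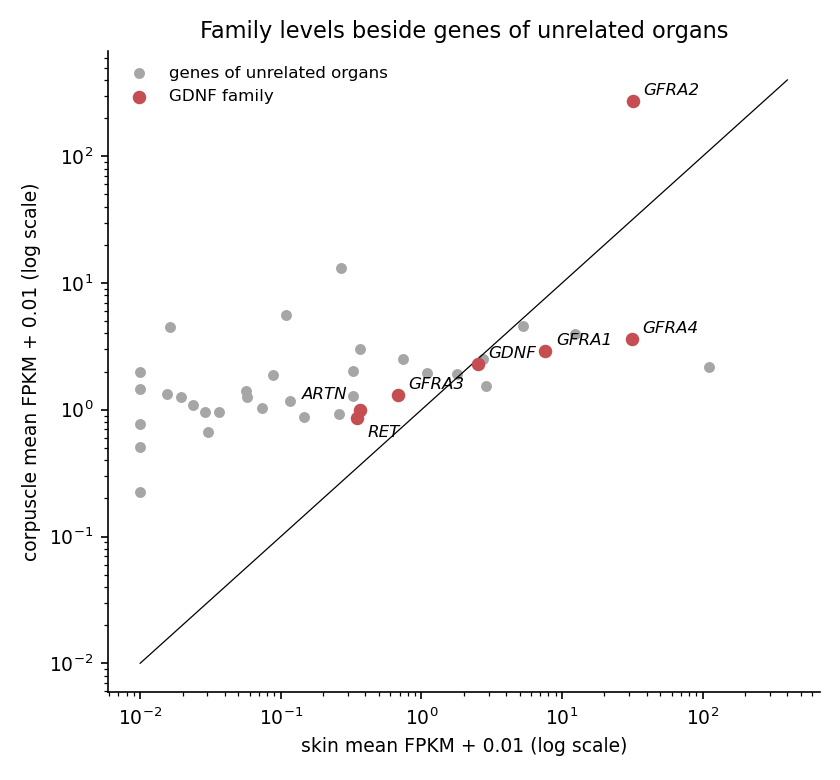
Mean FPKM in corpuscles (vertical) against skin (horizontal), both on log axes after adding 0.01, for the 7 family genes (red) and 32 genes of unrelated organs (grey); the line marks equal levels. RET (0.845 FPKM in corpuscles, 0.336 in skin) and ARTN (0.994 and 0.355) lie among the grey points above the line, GFRA2 (272 and 32.1) stands apart and GFRA4 (3.62 and 31.5) lies below it.

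In order of FPKM, GFRA2 led in corpuscles at 272 ± 169 and did not overlap the next gene. GFRA4 at 3.62 ± 2.23, GFRA1 at 2.88 ± 1.47, GDNF at 2.29 ± 2.09, GFRA3 at 1.29 ± 2.06, ARTN at 0.994 ± 0.682 and RET at 0.845 ± 0.536 FPKM followed, and neighbours in that order overlapped. In skin GFRA2 at 32.1 ± 5.45 and GFRA4 at 31.5 ± 5.13 FPKM overlapped each other and lay above GFRA1 at 7.61 ± 2.50 FPKM. GDNF at 2.51 ± 0.305 FPKM came next and did not overlap GFRA3 at 0.674 ± 0.185 FPKM. ARTN, at 0.0786 to 0.626 FPKM, overlapped both GFRA3 (0.483 to 0.946) and RET (0.252 to 0.432), which did not overlap each other. GFRA2 thus led in corpuscles alone, and shared the lead with GFRA4 in skin.

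Of the other ligands and receptors of the family, NRTN, the preferred ligand of GFRA2, was at 12.7 ± 6.78 CPM in corpuscles, against 20.6 ± 7.68 CPM in skin and did not pass (log2 fold change -0.70 ± 0.41 SE, adjusted p = 0.164). It was at 11.6, 6.41, 19.9, 19.5 and 6.04 CPM in corpuscles 1 to 5, so the libraries with the most GFRA2 were not those with the most NRTN. NRTN averaged 2.34 FPKM in corpuscles, where 8 of the 32 genes of unrelated organs were at or above it. GFRAL, which in mammals binds GDF15 in the hindbrain, rose by 2.27 ± 0.57 on the log2 scale (adjusted p = 0.00341), with 1.06 within corpuscles 1 to 3 and skin 1 to 4 (adjusted p = 0.155). It did so from very low levels, at 0.860 FPKM in corpuscles, where 28 of the 32 genes of unrelated organs were at or above it, and 0.185 FPKM in skin. GDF15 did not pass (1.24 ± 0.810 CPM in corpuscles, against 0.691 ± 0.245 CPM in skin, adjusted p = 0.176).

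The other genes of the pathway, on 5 lists of alternative receptors, adaptors, kinases, feedback regulators and transcription factors, moved both ways, with 21 higher and 26 lower in corpuscles among 77 tested. Over all genes tested 33.0% were higher and 23.5% lower, 56.4% in all, so the pathway genes were called about as often as genes in general. Their median log2 fold change was -0.30 and that of all genes 0.18. In corpuscles 4 and 5 and skin 5 and 6, 9 rose and 7 fell of 78 tested, and over all genes of that fit 24.5% were higher and 9.82% lower.

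Among the 22 adaptors that couple RET and other kinases to their pathways, 7 rose and 8 fell (median log2 fold change -0.25), and members of the SHC family were called in both directions. SHC4, a form found in the nervous system and in melanocytes of mammals, was at 181 ± 59.7 CPM in corpuscles, against 46.5 ± 6.26 CPM in skin (log2 fold change 1.96 ± 0.25 SE). SHC3, the neuronal form, was at 14.4 ± 1.65 CPM in corpuscles, against 3.64 ± 0.966 CPM in skin (1.98 ± 0.32). SHC1, the form found in most cells, was at 6.25 ± 2.46 CPM in corpuscles, against 61.4 ± 6.47 CPM in skin (-3.30 ± 0.31). SHC2, another neuronal form, named after its values were seen, was also lower, at 6.82 ± 2.72 CPM in corpuscles, against 13.7 ± 1.68 CPM in skin (-1.01 ± 0.34, adjusted p = 0.0191). SH2B2 and DOK5, which also dock on activated receptor kinases, rose by 3.30 and 2.90 on the log2 scale, and GRB2, which links receptors to RAS, had a log2 fold change of -1.77.

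Of 20 kinases and lipases listed as downstream of RET, 4 rose and 10 fell (median log2 fold change -0.57). BRAF, a kinase that activates the MAP kinase cascade, was among those that rose, with a log2 fold change of 0.98 ± 0.19 (SE). PLCG1, a phospholipase recruited by RET, was at 26.2 ± 8.57 CPM in corpuscles, against 95.9 ± 13.7 CPM in skin (-1.87 ± 0.27), and the PI3 kinase subunits PIK3R2 and PIK3CA had log2 fold changes of -1.80 and -1.74. The 10 that fell include PDK1, a kinase of pyruvate dehydrogenase that is no part of this pathway.

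Of 16 feedback and turnover genes 6 rose and 4 fell (median log2 fold change 0.05). SPRY1, an inhibitor of receptor kinase signalling that limits RET in mouse kidney development, was at 186 ± 81.1 CPM in corpuscles, against 50.6 ± 8.73 CPM in skin (log2 fold change 1.88 ± 0.28 SE), and its values did not overlap between the tissues. CD2AP, an adaptor in RET turnover in mouse neurons, had a log2 fold change of -1.37. Of 14 transcription factors and targets tested 4 rose and 3 fell, and those that rose included PHOX2A, NKX2-1 and TLX2, named after their values were seen and all under 5 CPM on average. In corpuscles they averaged 2.68, 1.63 and 0.594 FPKM, where the means of the 32 genes of unrelated organs had a median of 1.43 and an upper quartile of 2.25 FPKM. Of those genes 13 of the 20 tested were called higher too, a count that the filter on low counts favours. PHOX2A and NKX2-1, at 0 CPM in skin, could likewise pass that filter only through corpuscle libraries. EGR1, an immediate early gene, was at 34.3 ± 12.6 CPM in corpuscles, against 179 ± 27.7 CPM in skin (-2.39 ± 0.27), and the retinoic acid receptor RARA had a log2 fold change of -3.95. Of 5 alternative receptors 0 rose by edgeR and 1 fell, the syndecan SDC3 (-1.53 ± 0.40).

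**Figure D5:**
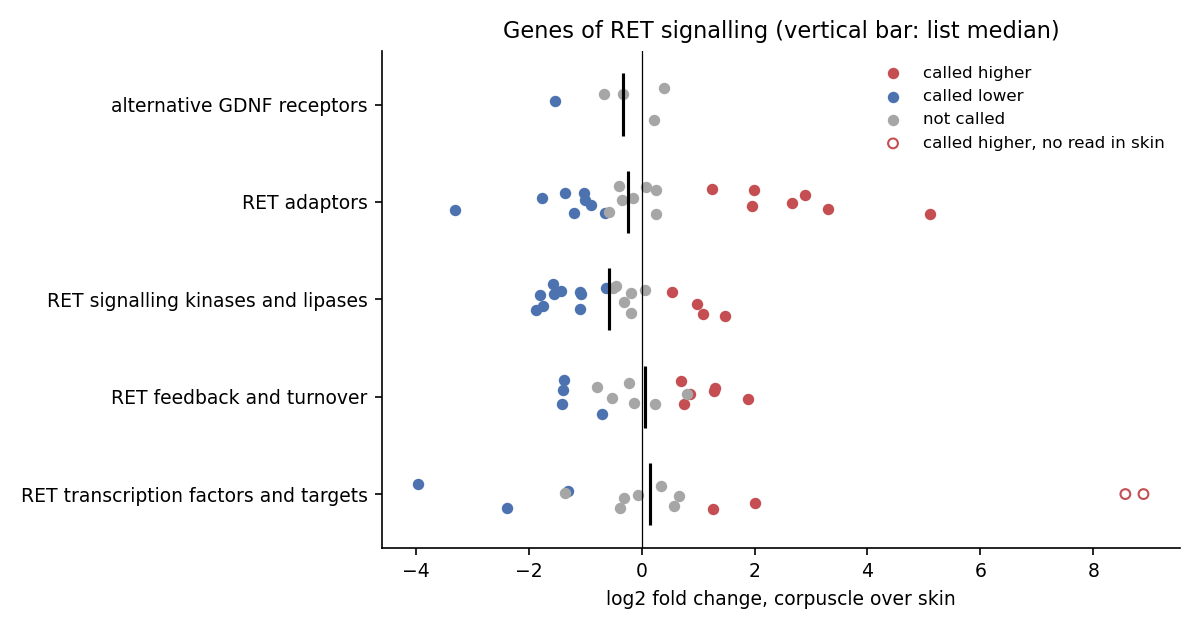
Log2 fold change, corpuscle over skin, of each tested gene on 5 lists of RET signalling; red is called higher, blue called lower, grey not called, vertical bars are list medians, and open circles are 2 genes with no read in skin, whose fold changes depend on the prior count. List medians lie between -0.57 and 0.15, with called genes on both sides of 0 in 4 of the 5 lists.

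Genes whose log2 CPM followed the family most closely over the 11 libraries were found by Pearson correlation, as a description, since all points share the difference between tissues and kits. For GFRA2 they were MRPL2 (r = 0.983), of the mitochondrial ribosome, and OLFM1 (0.982), a secreted olfactomedin, at 1125 ± 399 CPM in corpuscles, against 276 ± 21.5 CPM in skin. For GFRA4 they were TRIM24 (0.997) and GNA12 (0.991), for GFRA1 MTHFD1L (0.956) and ATF1 (0.948), and for GFRA3 PGPEP1L (0.943) and RIPOR3 (0.940). RET was followed by TEAD3 (0.975) and PURB (0.970), GDNF by RTEL1 (0.959), and ARTN by ATG12 (0.933) and MPC1 (0.926).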

How the data were processed

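The authors deposited whole-number read counts for each gene. Their deposited normalized signal is that count over 1 factor per library, and their deposited FPKM is this signal per kilobase, with 1 length for each gene. The authors' deposited table also gives a log2 fold change, skin over corpuscle, with a p-value and false discovery rate. Per the submitters' processing notes reads were handled with STAR 2.7.7a, Trimmomatic 0.39 and CASAVA 1.8.2, and featureCounts of Subread 2.0.1, R 4.2.1 and edgeR 3.38.4 are named too. The build, annotation and use of strand are not given in the sources used here, so reads of overlapping antisense genes cannot be told apart.

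The count test here was edgeR 4.0.16 under R 4.3.3 (filterByExpr, TMM, quasi-likelihood test with robust estimation, tissue as the sole term, Benjamini-Hochberg adjustment over all genes tested). The fit was run on simulated data with the same spread in both tissues. In the real libraries the biological coefficient of variation was 65.1% in corpuscles and 24.2% in skin, so that simulation did not cover unequal spread. SE is the log2 fold change over the square root of the F statistic. limma 3.58.1 (voom) and DESeq2 1.42.0 were alternatives, and figures used matplotlib 3.10.9. CPM use TMM-scaled library sizes, and SD is over libraries. A floor of 3 counts is 0.520 CPM at the lowest depth and 0.143 CPM at the highest, which covers counting error only. Libraries of 1 tissue differed by more than sampling noise (chi-square over its degrees of freedom at least 12.1). Of 4214 locus identifiers 603 gained a symbol by gene ID in a duck gene table from RefSeq (assembly IASCAAS_PekinDuck), among them PLCG1, CD2AP and RARA; its coordinates were not used. Members and lists were chosen with earlier results of these data known. The rule names all 7 members, of each pathway list up to 4 called genes each way with at least 10 CPM in a tissue, the marker genes, and the 2 most correlated genes per member with a mean of at least 5 CPM. Alternatives were other scalings, filters and tools, a replicate block, thinning, library sizes without the 20 most abundant genes, CPM per kilobase, each library left out and the 2 sets split on the second principal component. Fits without corpuscles 4 and 5 were chosen after seeing the data. The 2 sets were drawn from the second principal component of these same libraries, so they are not independent of the main test. Results for a few individual genes are left out here.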

Additional observations from a re-analysis of the deposited data

Results flagged for a closer look

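Within a tissue, the highest or lowest library was tested for standing apart from the others in 70 groups of values (35 genes, 2 tissues), and chance flags about 1 in 20 groups. This gave 7 values. GFRA3 was at 23.1 CPM in corpuscle 4, against 1.11 to 3.20 CPM in the other corpuscles. Corpuscle 4 was also highest for SHC1 (10.6 CPM) and CBL (30.1 CPM) and lowest for FYN (32.3 CPM). In skin, library 4 was lowest for SHC1 (49.0 CPM) and SOS1 (71.6 CPM), and library 3 for SPRED2 (81.8 CPM).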

How the results depend on the processing

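GFRA2 and GFRA4 kept direction and call under every alternative run, with log2 fold changes from 2.83 to 3.42 and from -3.58 to -2.76. GFRA1 lost its call within both sets split on the second principal component (-1.14 and -1.59). RET lost it within corpuscles 1 to 3 and skin 1 to 4 (0.58), without corpuscles 4 and 5 (0.63) and with a replicate block (1.24). ARTN lost it within both sets (0.98 and 1.93), without corpuscles 4 and 5 (0.82), with a replicate block (1.39) and without corpuscle 4, skin 4 or skin 6, with values of 1.05 to 1.74 over libraries left out. GFRA3, not called, turned sign with limma-voom (-0.16), a replicate block (-0.25), within corpuscles 1 to 3 and skin 1 to 4 (-0.80) and without corpuscles 4 and 5 (-0.66), and ran from -0.80 to 1.27 over libraries left out. GDNF, not called, turned sign with DESeq2 (0.0022), DESeq2 size factors (0.0028), upper-quartile factors (0.069), a minimum of 5 CPM (0.20) and within corpuscles 4 and 5 and skin 5 and 6 (0.24), and ran from -0.59 to 0.21 over libraries left out. GDF15, not called, turned sign within corpuscles 1 to 3 and skin 1 to 4 (-0.063) but passed with 1.81 (adjusted p = 0.0446) in the other set, corpuscles 4 and 5 with skin 5 and 6. Why these calls and signs changed was not tested, also where fewer libraries were fitted.

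Genes lower in corpuscles over the whole table numbered 3437, and 1514 within corpuscles 4 and 5 and skin 5 and 6. Pathway genes that fell numbered 26, but 15 with a minimum of 5 CPM, 17 after thinning and 7 within corpuscles 4 and 5 and skin 5 and 6, where 9 rose against 21. Over libraries left out they ran from 20 to 29 lower and from 17 to 21 higher. CBL, GAB1 and MAP2K2 lost their calls without single libraries, with adjusted p up to 0.0825, 0.0788 and 0.135. The median log2 fold change over all genes was -0.05 with limma-voom and -0.04 with a replicate block, 0.33 with upper-quartile factors and 0.34 without a filter, against 0.18; that of the pathway genes was -0.42, -0.40, -0.13 and -0.29 in the same order, against -0.30. The labels do not say whether replicate numbers pair the libraries. Of 5 corpuscle libraries 0 correlated best with the skin library of their number, and correlations within numbers ran from -0.18 to 0.18. With 5 pairs and different kits this check cannot exclude pairing. With a replicate block 3790 genes were higher and 3327 lower. A minimum of 5 CPM left out RET, GFRA3 and ARTN, thinning left out ARTN, and DESeq2 gave GFRA3 no adjusted p. Depth limits ARTN most, with 2 reads in its lowest skin library.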
